A study of Mus musculus with 12 samples.

Results

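The collagen chain genes are described here in spleens of BALB/cByJ and BALB/cJ mice, before and after immunization with cartilage proteoglycan (PG). Members were all probe sets of the array that are annotated to a single gene whose symbol has the form Col, number, a, number, for example Col1a1. There were 82 such probe sets of 45037 tested, and they represented 42 genes. By the type of assembly the chains form, 21 probe sets (11 genes) were fibrillar, 12 (6 genes) belonged to type IV collagen of basement membranes and 49 (25 genes) to other collagens.

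RNA came from the spleens of female mice, 1 animal and 1 Affymetrix mouse whole-genome array per sample, with 3 arrays in each of 4 groups. The paper describes the material as spleen cells, while the sample titles name only spleen. Immunized BALB/cByJ and immunized BALB/cJ mice had received a single intraperitoneal injection of 100 µg of cartilage PG protein with 2 mg of the adjuvant dimethyldioctadecyl-ammonium bromide (DDA) and were killed 12 days later (the dose is that of the sample descriptions, and the study's methods give a lower one for its comparison of colonies), while naïve BALB/cByJ and naïve BALB/cJ mice were untreated. Both colonies are substrains of the BALB/c strain from The Jackson Laboratory and the animals were age-matched. In BALB/c mice, repeated injections of human cartilage PG lead to arthritis and spondylitis, and at the time studied the immunized animals were not yet arthritic. None of the 4 groups received the adjuvant alone, so PG and DDA cannot be told apart.

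A collagen molecule is built from 3 chains wound into a triple helix. Fibrillar collagens form the load-bearing fibrils of connective tissue, type IV collagen forms the sheet that underlies endothelium, and the others decorate fibrils, build fine filaments or anchor cells. In the spleen these chains are made mainly by fibroblastic reticular cells, by cells of the capsule and trabeculae and by cells of the vessel walls, and the fibers they form are the scaffold on which the white and red pulp are laid out.

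Each value is a log2 expression value relative to the median of the 12 arrays for that probe set, because the authors subtracted this median. A value of 0 therefore marks the median array, and no signal level can be read from it, so that the genes cannot be ranked by abundance and the presence of spleen markers could not be checked as a level. A difference is a log2 difference between group means, and a probe set was called when its adjusted p from limma (Benjamini-Hochberg over all 45037 probe sets) was under 0.05. The number of arrays limits the precision of every value.

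The promoters of 3 members are shown, chosen by hand with the comparison in naïve mice known. Col3a1 had the lowest log2 difference of all collagen probe sets. Col18a1 was among the genes called lower, and Col17a1 was the gene called higher. The windows shown are the 150 bases before the RefSeq transcript start (GRCm38.p6), written 5′ to 3′ on the strand of the gene. Col3a1 lies at chr1:45311388-45311537 on the plus strand, Col18a1 at chr10:77166531-77166680 on the minus strand and Col17a1 at chr19:47692043-47692192 on the minus strand. Capitals mark matches on either strand to TATAAA (the TATA box), to CCAAT (the CCAAT box) and to GGGCGG (the GC box, bound by Sp1).
Col3a1: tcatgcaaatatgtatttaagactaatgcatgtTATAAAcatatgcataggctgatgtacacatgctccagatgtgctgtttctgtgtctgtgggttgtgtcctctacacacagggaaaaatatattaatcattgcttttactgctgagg
Col18a1: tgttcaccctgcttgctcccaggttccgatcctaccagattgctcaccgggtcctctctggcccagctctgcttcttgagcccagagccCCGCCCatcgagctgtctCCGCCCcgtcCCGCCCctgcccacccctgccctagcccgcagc
Col17a1: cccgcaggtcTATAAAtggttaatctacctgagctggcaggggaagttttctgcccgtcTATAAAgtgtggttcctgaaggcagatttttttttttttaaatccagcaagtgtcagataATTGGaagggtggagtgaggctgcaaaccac

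The Col3a1 window held 1 TATAAA, which began 117 bases before the start. The Col18a1 window held 3 copies of GGGCGG, all on the reverse strand, beginning 61, 43 and 33 bases before the start. The Col17a1 window held TATAAA beginning at 140 and 91 bases and CCAAT on the reverse strand at 31 bases before the start, and no matches overlapped. Of the 42 member genes, 33 were in the promoter table, with 36 windows. TATAAA was found in 4 of these 36 windows (11.1%) and in 7.57% of all 32851 windows, CCAAT in 8 (22.2%) and in 24.5% of all, and GGGCGG in 18 (50%) and in 28.6% of all. A match is a description of the letters and not of a binding site. In the gene order of the same assembly, 5 pairs of members are neighbors with 0 protein-coding genes between them: Col3a1 and Col5a2, Col4a1 and Col4a2, Col4a3 and Col4a4, Col4a5 and Col4a6, and Col6a1 and Col6a2.

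The arrays differed in features other than their group, and these are given first because they touch the results. Over the arrays, the 82 collagen probe sets varied with a median SD of 0.173, against 0.138 over all probe sets, and the fibrillar chains varied most (0.234, against 0.164 for basement membrane and 0.155 for other collagens). Immunized BALB/cJ replicate 1 was the highest array for 18 of the 82 collagen probe sets (22.0%), against 7.21% of all probe sets. In that array the median of the mesothelium markers (Msln, Upk3b, Wt1, Lrrn4, Upk1b and Krt19) was 1.06, with 4 of 6 genes above 1 and Lrrn4 at 1.68, against -0.31 to 0.16 in the other 11 arrays. Its adipose markers had a median of 0.49, with 3 of 8 genes above 1 and Adipoq at 2.81, and its pigment and Schwann cell markers a median of 1.14. The part of these cells in the collagen values was not tested. The sample numbers of the immunized arrays form an early and a late run, which no source calls a batch: BALB/cByJ replicates 1 and 2 and BALB/cJ replicate 1 are early (numbers 29, 31 and 33), and BALB/cByJ replicate 3 and BALB/cJ replicates 2 and 3 are late (48, 49 and 50). The naïve arrays have lower numbers than all immunized arrays, 10 to 12 in BALB/cByJ and 13 to 15 in BALB/cJ mice. The order of the numbers thus cannot be told apart from colony in naïve mice, or from immunization. Naïve BALB/cByJ replicate 3 was the lowest array for 21 collagen probe sets (25.6%, against 14.1% of all), and naïve BALB/cByJ replicate 1 for 15 (18.3%, against 17.9%).

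**Figure D1:**
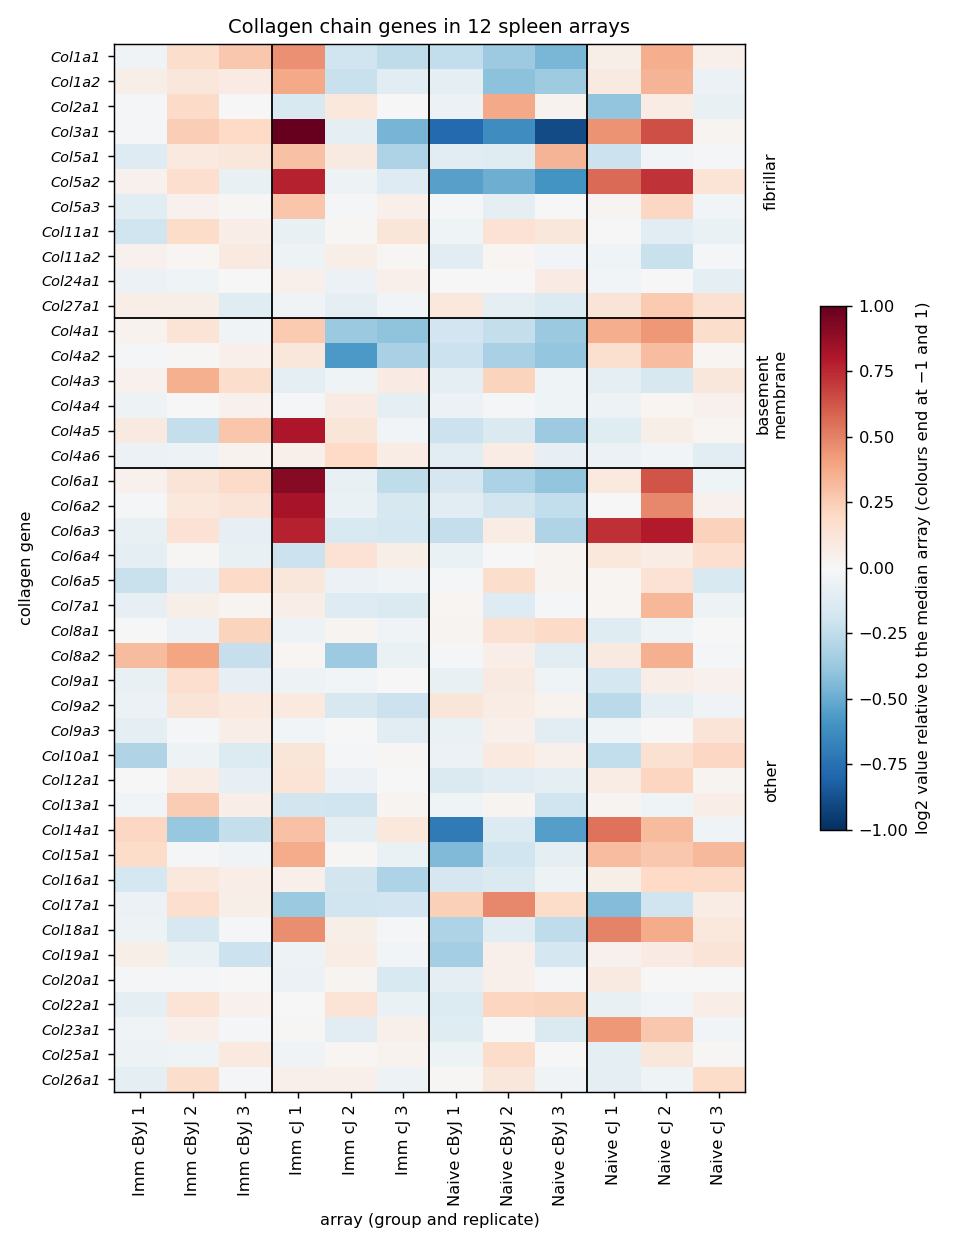
Heat map of the 42 collagen chain genes (rows, mean of the probe sets of a gene, ordered by class) in the 12 arrays (columns; Imm, immunized; cByJ and cJ, the BALB/cByJ and BALB/cJ colonies). Color is the log2 value relative to the median array and saturates at -1 and 1; the Col3a1 and Col5a2 rows are lowest in the 3 naïve BALB/cByJ arrays and highest in immunized BALB/cJ replicate 1.

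The first question was whether the colonies differed before immunization. In naïve mice, 6 collagen genes had a probe set called between the colonies: Col5a2, Col14a1, Col15a1, Col18a1 and Col4a1 had lower values in the BALB/cByJ colony, and Col17a1 had higher ones. At the level of probe sets, 7 of 82 were called lower, against a background of 1.71% of all probe sets, and 1 was called higher, against 2.68%. The share called higher was thus not above its background. In 26 of the 82 (31.7%) all 3 BALB/cByJ arrays were below all 3 BALB/cJ arrays, against 11.9% of all probe sets, and 26 had an unadjusted p under 0.05 with a lower mean, against 10.5%. The median difference was -0.11 over all collagens, -0.21 over fibrillar, -0.04 over basement membrane and -0.11 over other collagens, against -0.01 over all probe sets, and 54 of the 82 differences (65.9%) were below 0, against 52.1% of all. In bulk tissue, fewer cells of a type and less RNA per cell cannot be told apart.

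Among the fibrillar chains, Col5a2 was called by both of its probe sets. Col5a2 encodes the α2 chain of type V collagen, which copolymerizes with types I and III and limits the diameter of fibrils. The first Col5a2 probe set (1450625_at) had values of -0.53, -0.52 and -0.63 in naïve BALB/cByJ arrays, against 0.61, 0.72 and 0.09 in naïve BALB/cJ arrays. The groups did not overlap, and the third BALB/cJ array lay closest to the BALB/cByJ arrays. The means of Col5a2 were -0.56 ± 0.057 in BALB/cByJ and 0.47 ± 0.338 in BALB/cJ mice (SD, n = 3 each), a difference of -1.04 (SE 0.207, limma adjusted p = 0.0183), or 2.05-fold lower. The second Col5a2 probe set (1422437_at) gave -0.55, -0.46 and -0.57 in BALB/cByJ, against 0.52, 0.73 and 0.18 in BALB/cJ arrays, a difference with a 95% confidence interval of -1.45 to -0.56 (limma adjusted p = 0.0206).

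Col3a1, which encodes the single chain of type III collagen, the main component of reticular fibers, lies next to Col5a2 in the genome and had the largest difference, but it was not called. Its probe set 1427884_at had values of -0.82, -0.67 and -1.02 in naïve BALB/cByJ, against 0.51, 0.72 and -0.01 in naïve BALB/cJ arrays. The difference was -1.24 (95% confidence interval -2.17 to -0.32, limma adjusted p = 0.128), and for 1427883_a_at it was -1.03 (-1.72 to -0.35, limma adjusted p = 0.0897). The groups did not overlap in either probe set. The immunized BALB/cJ arrays, which share the estimate of the spread, were at 1.80, -0.07 and -0.46 for 1427884_at. When immunized BALB/cJ replicate 1 was left out, both Col3a1 probe sets were called (limma adjusted p = 0.00395 and 0.00842), with the same differences.

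The chains of type I collagen, the most widespread fibrillar collagen, were also below BALB/cJ in every naïve BALB/cByJ array for 3 of their 5 probe sets, without a call. Col1a1 (1423669_at) had values of -0.28, -0.46 and -0.46 in BALB/cByJ, against 0.10, 0.43 and 0.11 in BALB/cJ arrays, a difference of -0.62 (SE 0.198, limma adjusted p = 0.106). The other Col1a1 probe set (1455494_at) was at -0.41, and the 3 probe sets of Col1a2, which encodes the α2 chain, were at -0.37, -0.40 and -0.46, with adjusted p of 0.0781 for the last (1450857_a_at). In contrast, the 3 probe sets of Col5a1, the partner chain of Col5a2, had differences of 0.02, 0.23 and 0.10, and their arrays overlapped. The fibrillar chains of cartilage, Col2a1, Col11a1 and Col11a2, and the minor chains Col24a1 and Col27a1 had differences between -0.26 and 0.25, and none was called.

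In basement membrane collagen, the most negative differences were those of the Col4a1 and Col4a2 chains, the ubiquitous pair that assembles into most vascular basement membranes and is transcribed from neighboring genes. Col4a1 (1452035_at) had values of -0.14, -0.33 and -0.46 in naïve BALB/cByJ, against 0.47, 0.46 and 0.22 in naïve BALB/cJ arrays. The groups were separate, and the difference was -0.69 (SE 0.179, limma adjusted p = 0.0488). The second Col4a1 probe set (1426348_at) was at -0.49 and just missed the threshold (limma adjusted p = 0.0505). Col4a2 gave -0.21, -0.33 and -0.38 in BALB/cByJ, against 0.16, 0.31 and 0.02 in BALB/cJ arrays, a difference of -0.47 (SE 0.14, limma adjusted p = 0.0815). The chains of specialized basement membranes, Col4a3 to Col4a6, had 9 probe sets with differences between -0.35 and 0.12 and no call. The 1 of them with an unadjusted p under 0.05 was Col4a4 (1445328_at) at -0.26 (limma adjusted p = 0.143).

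Among the other collagens, the multiplexins Col15a1 and Col18a1, proteoglycan-type collagens of vascular basement membranes, were lower in naïve BALB/cByJ mice. Col15a1 had values of -0.44, -0.20 and -0.09 in BALB/cByJ, against 0.31, 0.27 and 0.32 in BALB/cJ arrays, a difference of -0.54 (SE 0.12, limma adjusted p = 0.0272). Col18a1, whose protein carries the endostatin fragment at its end, gave -0.39, -0.12 and -0.28 in BALB/cByJ, against 0.53, 0.32 and 0.19 in BALB/cJ arrays with 1426955_at. That difference was -0.61 (SE 0.138, limma adjusted p = 0.0294), and the other Col18a1 probe set (1418237_s_at) was at -0.49 (limma adjusted p = 0.0562). In both genes, all BALB/cByJ arrays lay below all BALB/cJ arrays.

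Col14a1, a fibril-associated collagen that binds the surface of type I fibrils, was called lower with 2 probe sets out of 3. For 1428455_at the values were -0.17, -0.27 and -0.36 in naïve BALB/cByJ, against 0.56, 0.29 and 0.11 in naïve BALB/cJ arrays. The difference was -0.59 (SE 0.121, limma adjusted p = 0.0206), and it was -0.53 (SE 0.129, limma adjusted p = 0.0373) with 1427168_a_at. The third Col14a1 probe set (1453931_at) had the wider spread of -1.88, -0.01 and -0.81 in BALB/cByJ, against 0.56, 0.41 and -0.39 in BALB/cJ arrays, and its groups overlapped. The difference there was -1.09 with a 95% confidence interval of -2.04 to -0.14.

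Type VI collagen, which forms beaded filaments around cells, was at negative differences in all probe sets of its 3 classical chains without a call. Col6a3 had values of -0.24, 0.08 and -0.30 in naïve BALB/cByJ, against 0.73, 0.80 and 0.23 in naïve BALB/cJ arrays, a difference of -0.74 (SE 0.226, limma adjusted p = 0.0885). Col6a1 was at -0.52, and the 2 probe sets of Col6a2 were at -0.22 and -0.49. For Col6a4 the 2 probe sets disagreed, with 1429072_at at -0.36 (limma adjusted p = 0.0675) and 1445470_at at 0.10. Col12a1 (1434411_at), fibril-associated like Col14a1, was at -0.65 (limma adjusted p = 0.0854), while its other 3 probe sets lay between -0.13 and -0.01.

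Col17a1, a transmembrane collagen of hemidesmosomes in stratified epithelia, was the exception in direction. It had values of 0.24, 0.48 and 0.18 in naïve BALB/cByJ, against -0.44, -0.20 and 0.08 in naïve BALB/cJ arrays, and the third BALB/cJ array came close to the lowest BALB/cByJ array. The difference was 0.49 (SE 0.126, limma adjusted p = 0.0472), or 1.40-fold higher. Of the other members, Col8a1 (1455627_at), a chain of the network collagen made by endothelial cells, had the next smallest p of the positive differences, 0.35 (limma adjusted p = 0.0578), and the other Col8a1 probe sets were at 0.25 and -0.07. Among the remaining chains with an unadjusted p under 0.05, Col23a1, a transmembrane collagen, was at -0.30 (1429209_at) and -0.39 (1440911_at), and the fibril-associated chains Col19a1 and Col16a1 were at -0.40 and -0.27, none of them called. Of the 27 genes with several probe sets, 19 had the same sign in all of them.

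**Figure D2:**
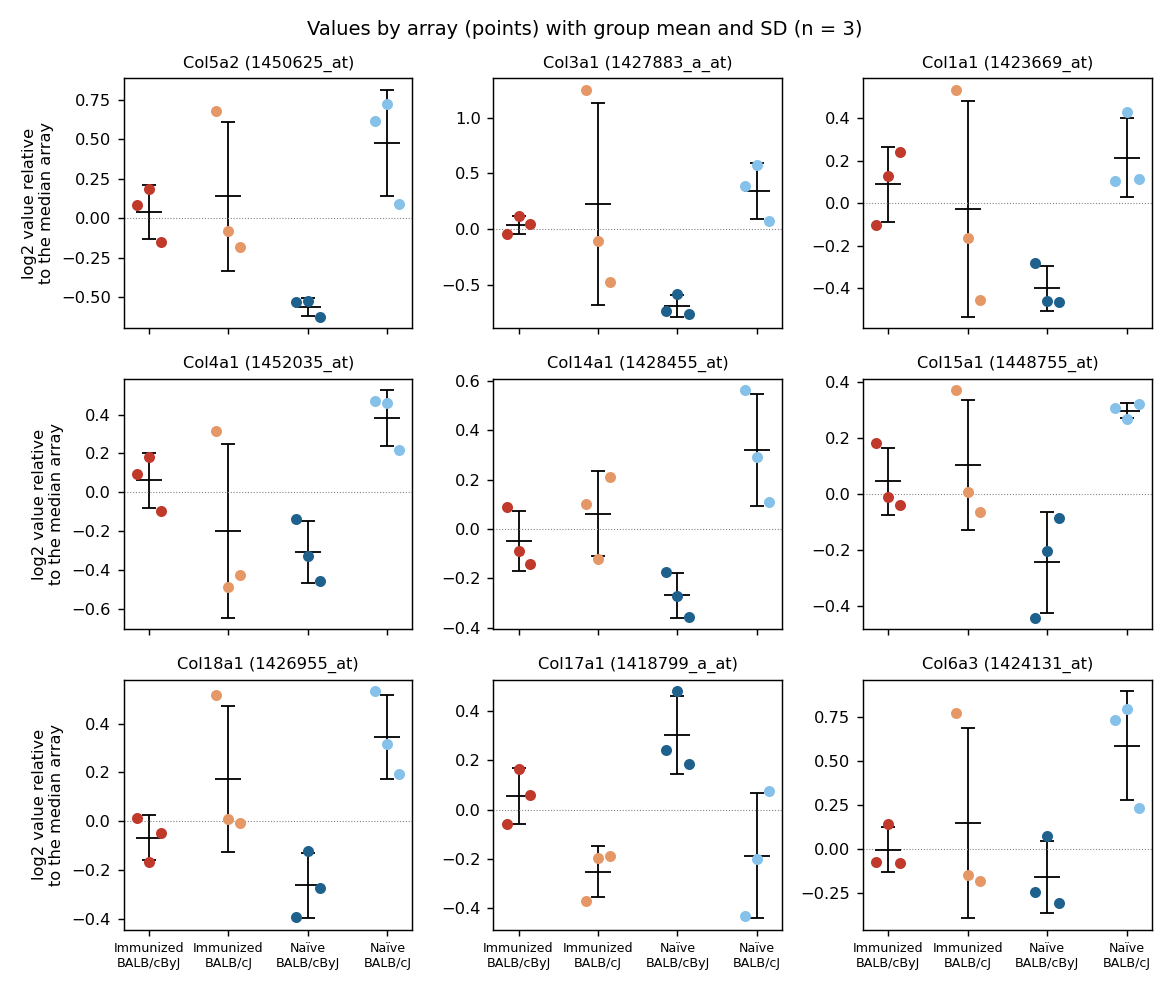
Values of 9 collagen probe sets in each array (points; for each gene the probe set with the smallest naïve p; y axis, log2 value relative to the median array) by group, with the group mean and SD (n = 3). In 8 panels, all but that of Col17a1, the naïve BALB/cByJ points lie below the naïve BALB/cJ points, and the highest immunized BALB/cJ point is replicate 1 except in the Col14a1 and Col17a1 panels.

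The calls, of collagens and of all probe sets, depended on single arrays. None of the 82 collagen probe sets was called without naïve BALB/cByJ replicate 3, without naïve BALB/cJ replicate 1 or without naïve BALB/cJ replicate 2, when 0.195%, 0.151% and 0.135% of all probe sets were called lower and 0.393%, 0.364% and 0.222% higher. Without naïve BALB/cByJ replicate 2, 4 were called lower (background 1.02%). Conversely, 17 were called lower without immunized BALB/cJ replicate 1 (background 1.85%), the array with high mesothelium markers, which enters this comparison only through the shared estimate of the spread. Besides probe sets of 5 genes already named, these 17 held those of Col3a1, Col1a1 (1423669_at), Col1a2 (1450857_a_at), Col4a2, Col6a2 (1452250_a_at), Col6a3 and Col6a4 (1429072_at), while Col17a1 was not called. Over the 12 fits that left out 1 array each, Col5a2 (1450625_at) kept its call in 9, Col18a1 (1426955_at) in 8, Col14a1 (1428455_at) in 8, Col15a1 in 6, Col4a1 (1452035_at) in 5 and Col17a1 in 1. With the run of sample numbers as a block among the immunized arrays, 11 collagen probe sets were called lower (background 1.87%) and 0 higher (background 2.51%), and Col17a1 had an adjusted p of 0.0542 from limma.

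Markers of several other cell types moved with the same contrast, in which 1.71% of all probe sets were called lower and 2.68% higher. Those of mesothelium and adipose tissue had median differences of -0.09 and -0.04, with no call and no unadjusted p under 0.05 from limma. The endothelial markers had medians of -0.10, -0.07 and -0.24 in naïve BALB/cByJ arrays, against 0.36, 0.23 and 0.19 in naïve BALB/cJ arrays, and 5 of 10 genes (Tek, Stab2, Cldn5, Tie1 and Cdh5) were called lower. The stromal reticular markers had medians of -0.07, -0.12 and -0.14 in BALB/cByJ, against 0.13, 0.13 and 0.05 in BALB/cJ arrays, with 1 of 8 genes called (Pdgfrb, -0.86, SE 0.213, limma adjusted p = 0.0403). None of the 8 smooth muscle genes was called, and their medians were -0.08, -0.03 and -0.04 in BALB/cByJ, against 0.12, 0.19 and 0.05 in BALB/cJ arrays. Of 9 erythroid genes, 8 were called higher, with medians of 0.29, 0.36 and 0.67 in BALB/cByJ, against -1.26, -1.50 and -0.35 in BALB/cJ arrays. When the erythroid level of each array (list mean) entered the fit, a choice made after seeing the data, 0 collagen probe sets were called, and 0.0244% of all probe sets were called lower and 0.0311% higher. The differences in that fit were -0.76 and -0.86 for Col5a2, -0.58 for Col18a1 (1426955_at), -0.66 for Col15a1, -0.51 for Col4a1 (1452035_at), 0.31 for Col17a1, and -0.20 and -0.21 for Col14a1. The pigment and Schwann cell markers were at -0.32, 0.04 and -0.11 in BALB/cByJ, against 2.04, 1.73 and 0.26 in BALB/cJ arrays, with 1 of 8 genes called lower (Fabp7, -2.89, SE 0.329, limma adjusted p = 0.0013). Without the 4 arrays in which the pigment cell gene Dct was above 4, which leaves 1 naïve BALB/cJ array, 0 collagen probe sets were called, and 0.0133% of all probe sets were called lower and 0.0200% higher. The differences were then -0.65 and -0.70 for Col5a2, -0.46 for Col18a1 (1426955_at), -0.56 for Col15a1, -0.53 for Col4a1 (1452035_at), 0.23 for Col17a1, and -0.38 for both called probe sets of Col14a1. Pancreas acinar markers had a median of 2.26 in naïve BALB/cByJ replicate 1 and of -0.14 to 0.29 in the other 11 arrays, with 1 of 14 genes called higher (Prss2, by 2 of 24 probe sets). Neutrophil markers had medians of -0.83, -1.03 and -1.19 in naïve BALB/cByJ, against 0.13, -0.94 and -0.28 in naïve BALB/cJ arrays, with 0 of 9 genes called, and B cell markers of -0.11, -0.05 and -0.16 in naïve BALB/cByJ, against 0.17, 0.17 and 0.03 in naïve BALB/cJ arrays, with 1 of 7 genes called lower (Fcer2a). The part of these cells in the collagen differences was not tested.

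**Figure D3:**
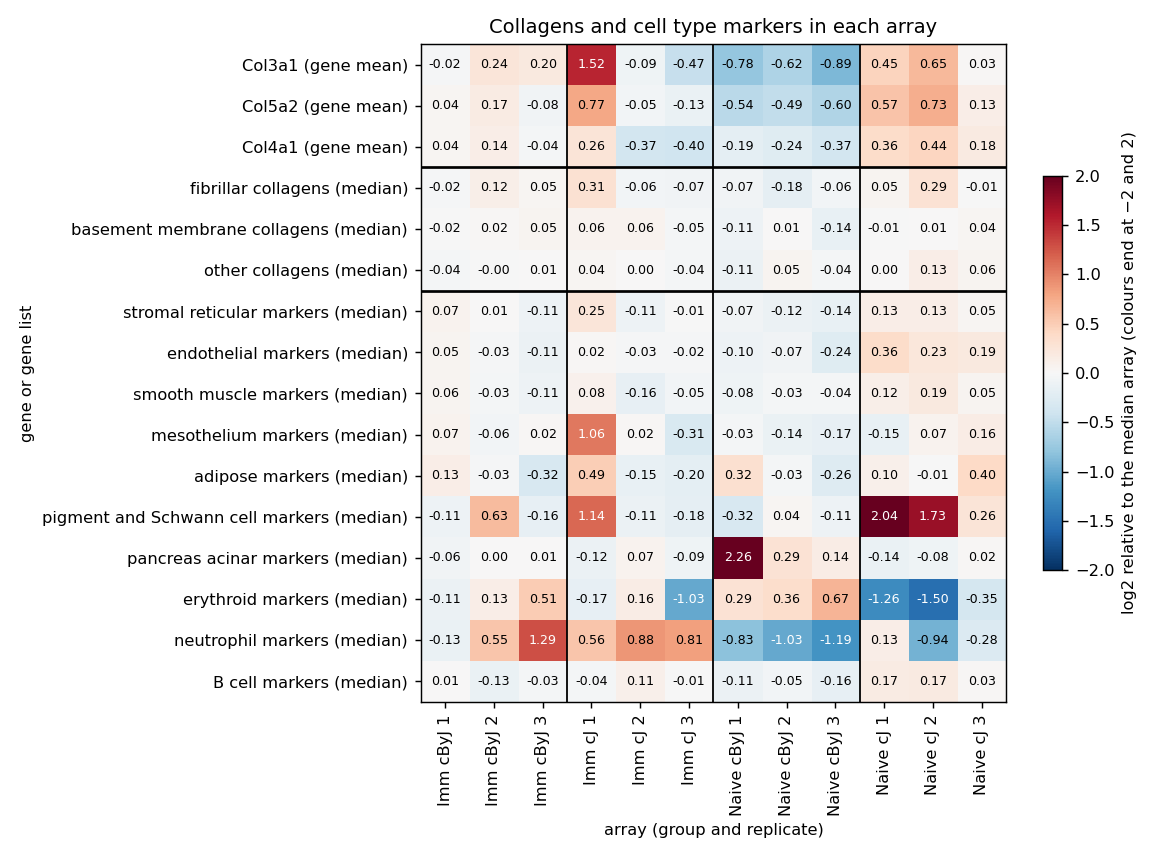
Heat map of 3 collagen genes, the medians of the collagen classes and the medians of the marker lists (rows) in the 12 arrays (columns; Imm, immunized; cByJ and cJ, the colonies). Each cell prints its log2 value relative to the median array; the mesothelium row reaches 1.06 in immunized BALB/cJ replicate 1, where Col3a1 is at 1.52, and the endothelial row is positive in the 3 naïve BALB/cJ arrays.

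Genes that make, bind and degrade collagen were examined in 5 lists. In naïve mice all called members were lower in BALB/cByJ, and none was higher. Their counts of probe sets stand against the 1.71% of all probe sets called lower. Of the genes of collagen synthesis, 29 of 33 listed were measured and 4 were called: Serpinh1, the collagen chaperone of the endoplasmic reticulum, Lox and Loxl1, which cross-link collagen and elastin, and P4ha1, a subunit of prolyl 4-hydroxylase. Lox (1416121_at) had values of -1.07, -0.73 and -0.71 in BALB/cByJ, against -0.04, 0.11 and 0.07 in BALB/cJ arrays, a difference of -0.88 (SE 0.193, limma adjusted p = 0.0257). Loxl1 (1451978_at) was at -0.96, the 2 probe sets of Serpinh1 at -0.60 and -0.76, and P4ha1 (1426519_at) at -0.42. The median over the 50 probe sets of the list was -0.17, with 5 called.

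Of the genes of collagen breakdown, 13 of 13 were measured and 3 were called: Mmp2, a gelatinase, Ctsk, a cysteine protease that cleaves the triple helix, and Timp2, an inhibitor of matrix metalloproteinases. Mmp2 (1439364_a_at) had values of -0.65, -0.46 and -0.62 in naïve BALB/cByJ, against 0.42, 0.47 and 0.04 in naïve BALB/cJ arrays. Its difference was -0.89 (SE 0.17, limma adjusted p = 0.0153), and the other Mmp2 probe set was at -0.85 (limma adjusted p = 0.0154). Ctsk was at -0.45 and Timp2 (1454677_at) at -0.37. The members called lower were thus 2 proteases and 1 inhibitor of proteases, and the median over the 26 probe sets was -0.36.

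Among matrix partners, 29 of 32 genes were measured and 6 were called by 9 probe sets. All 3 probe sets of Bgn, the small leucine-rich proteoglycan biglycan, were lower, at -0.44, -0.44 and -0.52, as were 2 of Thbs2 (thrombospondin 2, -0.71 and -0.60), and single ones of Lama2 (a laminin chain, -0.56), Fbln5 (fibulin 5, -0.52), Nid1 (nidogen, which links laminin to type IV collagen, -0.62) and Tnxb (tenascin X, -0.55). The median over the 67 probe sets was -0.12. Of the collagen receptors, 10 of 11 genes were measured and Itga1, the α1 integrin subunit that binds type IV collagen, was called at -0.57 (SE 0.13, limma adjusted p = 0.0308), 1 of 28 probe sets. Of the TGF-β genes, a pathway that induces collagen transcription, 16 of 17 were measured and Tgfbr2 (1426397_at), its type II receptor, was called at -0.39 (SE 0.0979, limma adjusted p = 0.045), 1 of 39 probe sets. These counts were near the background. The medians were -0.02 for the receptors and -0.16 for the TGF-β genes. None of the members of the 5 lists was called in immunized mice, in either response to immunization or in the difference between the responses, where at most 0.120% of all probe sets were called.

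**Figure D4:**
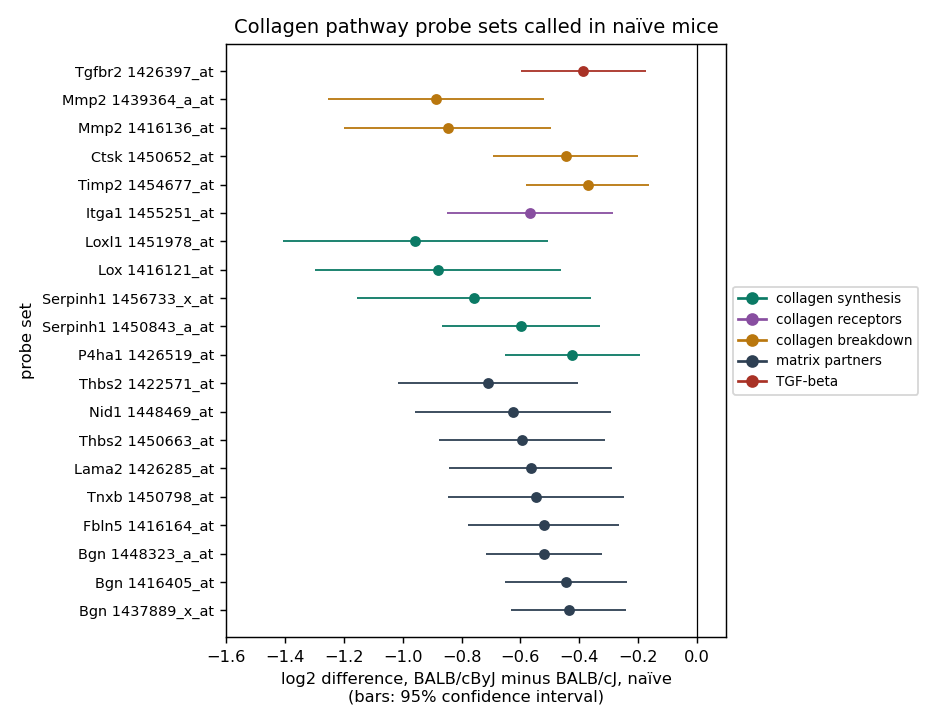
Log2 difference (x axis, BALB/cByJ minus BALB/cJ, naïve) with its 95% confidence interval for each called probe set of the 5 collagen pathway lists (rows, colored by list). All lie below 0, between -0.96 for Loxl1 and -0.37 for Timp2.

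The second question was whether the colonies differed 12 days after the injection. In immunized mice 0 of the 82 collagen probe sets were called, against 0.120% of all probe sets, and 3 had an unadjusted p under 0.05, against 7.92% of all. These were Col17a1, Col20a1 (1430855_at) and Col13a1, with differences of 0.31, 0.22 and 0.22 and a smallest adjusted p of 0.591. Col17a1 gave -0.06, 0.17 and 0.06 in immunized BALB/cByJ, against -0.37, -0.20 and -0.19 in immunized BALB/cJ arrays, so the groups did not overlap, as in naïve mice. Col5a2 (1450625_at) gave 0.08, 0.18 and -0.15 in immunized BALB/cByJ, against 0.68, -0.08 and -0.18 in immunized BALB/cJ arrays. The BALB/cJ arrays enclosed the BALB/cByJ arrays, and the difference was -0.10 (95% confidence interval -0.55 to 0.35). For Col4a1 (1452035_at) the difference was 0.26 (-0.13 to 0.65), and for Col4a2 it was 0.28 (-0.02 to 0.58), positive where naïve mice had negative values. The medians were 0.01 over all collagens, 0.01 over fibrillar, 0.06 over basement membrane and 0.00 over other collagens, against -0.01 over all probe sets.

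**Figure D5:**
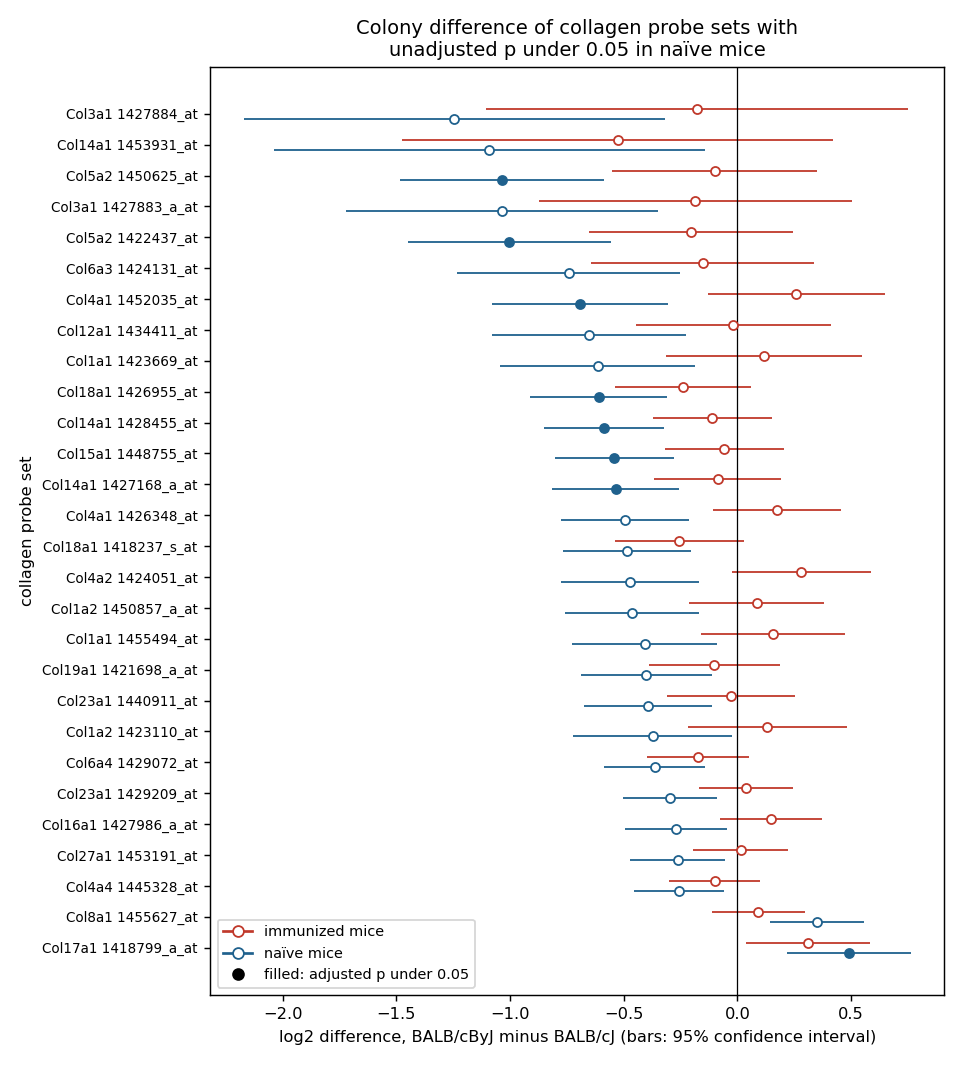
Log2 difference between the colonies (x axis, BALB/cByJ minus BALB/cJ) with its 95% confidence interval in immunized (red) and naïve (blue) mice for the 28 collagen probe sets (rows) with an unadjusted p under 0.05 in naïve mice; filled points have an adjusted p under 0.05. The rows were chosen on the naïve values, 26 of which are negative; the immunized intervals of all but Col17a1 include 0.

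Over both states, a contrast that shares all its arrays with those above, 5 collagen probe sets were called lower (background 1.58%) and 1 higher (background 3.04%) in BALB/cByJ mice. They were both probe sets of Col5a2 (-0.57 and -0.60), both of Col18a1 (1426955_at, -0.43, SE 0.0976, limma adjusted p = 0.0298; 1418237_s_at, -0.37), 1 of Col14a1 (1428455_at, -0.35), and Col17a1 (0.40, SE 0.0885, limma adjusted p = 0.0266). The number fell to 0 without immunized BALB/cByJ replicate 3, naïve BALB/cJ replicate 1 or naïve BALB/cJ replicate 2, to 1 without immunized BALB/cByJ replicate 2 or naïve BALB/cByJ replicate 3, and to 3 without immunized BALB/cByJ replicate 1, immunized BALB/cJ replicate 1 or naïve BALB/cByJ replicate 2. Of all probe sets 0.619%, 0.437% and 0.406% were called lower in the fits that left no collagen call, against 1.58% with all arrays. In these fits 1.38%, 1.21% and 0.970% were called higher, against 3.04% with all arrays. In the fits that left 1 call, the shares were 0.464% and 0.537% lower, and 1.30% and 1.35% higher. In those that left 3 calls, they were 1.89%, 0.773% and 1.72% lower, and 3.11%, 1.98% and 2.89% higher.

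The third question was how each colony responded to immunization. In BALB/cByJ mice 0 collagen probe sets were called (background 0.0511%). Of the 82, 11 had an unadjusted p under 0.05, against 8.30% of all, and all 11 differences were positive. In 19 of 82 (23.2%) all 3 immunized arrays were above all 3 naïve arrays, against 6.91% of all probe sets. The naïve BALB/cByJ arrays are the same as in the comparison of naïve colonies, so these values are not separate evidence. Fibrillar chains led: Col1a1 (1455494_at) had values of 0.03, 0.22 and 0.30 in immunized, against -0.21, -0.26 and -0.46 in naïve BALB/cByJ arrays, a difference of 0.49 (SE 0.146, unadjusted p = 0.0051 and adjusted p = 0.424 from limma). Col3a1 (1427884_at) gave 0.01, 0.37 and 0.35 in immunized, against -0.82, -0.67 and -1.02 in naïve arrays, a difference of 1.08 (95% confidence interval 0.15 to 2.01), and Col5a2 (1450625_at) was at 0.60. The groups did not overlap in these 3 genes. Of the other classes, Col4a2 was at 0.33, Col15a1 at 0.29 and Col23a1 (1429209_at) at 0.22, with unadjusted p of 0.0378, 0.0331 and 0.0411. The neutrophil markers had medians of -0.13, 0.55 and 1.29 in immunized, against -0.83, -1.03 and -1.19 in naïve BALB/cByJ arrays, and 9 of 9 probe sets had an unadjusted p under 0.05. Pancreas acinar markers, which were high in naïve BALB/cByJ replicate 1, had a median difference of -0.89, with 17 of 24. Stromal reticular and endothelial markers were at 0.12 and 0.11, with 1 of 15 and 1 of 12. None of these was called, and their part in the collagen differences was not tested.

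In BALB/cJ mice 0 collagen probe sets were called (background 0%), and 11 had an unadjusted p under 0.05, against 9.19% of all, with 9 negative and 2 positive differences. The smallest p belonged to the Col4a1 and Col4a2 chains, 3 of the 12 type IV probe sets, while the median of the 12 was 0.03 and 4 of them were below 0. Col4a1 (1452035_at) gave 0.32, -0.49 and -0.43 in immunized, against 0.47, 0.46 and 0.22 in naïve BALB/cJ arrays. Its first immunized array was within the naïve range and the other 2 were far below it. The difference was -0.58 (SE 0.179, unadjusted p = 0.00667 and adjusted p = 0.378 from limma), that of the other Col4a1 probe set -0.41 and that of Col4a2 -0.43. Col23a1 (1429210_at), Col16a1, Col6a4 (1429072_at), Col27a1 (1453191_at) and 2 probe sets of Col20a1 were also negative, and Col8a1 (1455627_at) and another Col20a1 probe set (1425236_at) were positive. Without immunized BALB/cJ replicate 1, 22 had an unadjusted p under 0.05 (20 negative), against 8.23% of all, and still none was called. Col4a1 (1452035_at) was then at -0.84 (SE 0.121, limma adjusted p = 0.22) and Col3a1 (1427884_at) at -0.67 (SE 0.204, limma adjusted p = 0.384), against 0.01 with that array. Markers of other cells had median differences of 1.11 for neutrophil, 0.65 for erythroid, -0.20 for endothelial, -0.15 for stromal reticular and -0.95 for pigment and Schwann cell genes between immunized and naïve BALB/cJ mice, none of them called. Of their probe sets, 9 of 9, 4 of 11, 6 of 12, 4 of 15 and 2 of 15 had an unadjusted p under 0.05. Smooth muscle, mesothelium and B cell markers had medians of -0.21, 0.28 and -0.14, with 4 of 14, 2 of 10 and 3 of 11 and no call. The part of all these markers in the collagen values was not tested.

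The mean response over both colonies gave 0 calls (background 0.0466%) and 4 unadjusted p under 0.05 (background 9.91%), of Col23a1 (1429210_at), Col6a4 (1429072_at), Col4a5 (1425475_at) and Col20a1 (1425236_at), at -0.24, -0.20, 0.21 and 0.16. The difference between the responses, BALB/cByJ minus BALB/cJ, asks directly whether the colonies responded unequally. It gave 0 calls among the collagens and 0% of all probe sets, while 17 collagen probe sets had an unadjusted p under 0.05, against 7.59% of all, and all 17 were positive. The smallest p belonged to Col4a1 and Col4a2: Col4a2 was at 0.75 (SE 0.198, unadjusted p = 0.00237), Col4a1 (1452035_at) at 0.95 (SE 0.253, unadjusted p = 0.00255) and its other probe set at 0.67, all with an adjusted p of 0.491 from limma. Next came Col5a2 (1450625_at) at 0.94 and Col16a1 at 0.42. This contrast equals the colony difference in immunized mice minus that in naïve mice. It thus contains the naïve difference with its sign reversed. Its values, with all arrays or with 1 left out, are not separate evidence from the comparison of naïve colonies. In the same contrast, median differences were 0.37 for endothelial, 0.28 for smooth muscle, 0.21 for stromal reticular and 1.21 for pigment and Schwann cell markers. Of their probe sets, 5 of 12, 2 of 14, 3 of 15 and 1 of 15 had an unadjusted p under 0.05. Erythroid and pancreas acinar markers were both at -0.95, with 4 of 11 and 5 of 24. Tie1 and Cdh5 (1433956_at), at 0.49 and 0.60, had smaller p than any collagen (0.00132 and 0.00145 from limma). The part of these cells was not tested.

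Without immunized BALB/cJ replicate 1 the difference between the responses had 24 positive and 0 negative collagen probe sets with an unadjusted p under 0.05, against 7.94% of all probe sets, and 1 was called, Col4a1 (1452035_at) at 1.21 (SE 0.162, limma adjusted p = 0.0462). Of all probe sets 0.0111% were called in that direction. The second Col4a1 probe set was then at 0.84 and Col4a2 at 0.94, with adjusted p of 0.0803 and 0.0794 from limma. Col3a1 (1427884_at) was at 1.76 without that array, against 1.07 with it. Leaving out any of the other 11 arrays gave no call.

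Most minor chains showed no difference that the arrays could resolve. The cartilage and epithelial chains Col2a1, Col7a1, Col9a1, Col9a2, Col9a3, Col10a1, Col11a1 and Col11a2 had naïve differences between -0.14 and 0.25, with no unadjusted p under 0.05. A p over the threshold does not show that these chains were equal.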

How the data were processed

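Spleen RNA of 12 mice was hybridized to Affymetrix mouse whole-genome arrays, 3 animals per group. The authors deposited log2 values: they were normalized by RMA (quantile normalization and median polish) in GeneSpring GX, and the median of each probe set over the 12 arrays was subtracted. The methods give a logarithmic scale without its base, and base 2 was inferred from RMA. No source used here gives the RMA version, and signal levels are unknown. Of 45101 probe sets, 64 controls were left out. Genes were named by the platform annotation: 34945 probe sets had 1 gene symbol, 932 several and 9160 none.

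Group means were fitted to all 12 arrays with limma 3.58.1 in R 4.3.3 (lmFit and eBayes), and p-values were adjusted by Benjamini-Hochberg over 45037 probe sets. Each array was a separate animal. The contrasts share arrays. Values were given for members called in any contrast, for 13 genes of types I, III to VI, XIV, XV and XVIII, for up to 4 members of each class with the smallest p in a pairwise contrast, and for pathway genes that were called. The fit was tested on simulated data. Alternatives were quantile rescaling, array weights, a replicate block, the run of sample numbers as a block, each array left out and others. The collagen members, gene lists and tests were chosen with earlier results of these data known.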

Additional observations from a re-analysis of the deposited data

How the results depend on the processing

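The count of collagen probe sets called between naïve colonies (8) and over both states (6) depended on several choices. Array weights gave 29 in naïve mice (26 lower and 3 higher, against 6.77% and 6.45% of all probe sets). They gave 10 over both states (9 lower and 1 higher, against 4.60% and 5.52% of all). For immunization in BALB/cJ mice they gave 3, all lower, against 0.881% of all. A test against a 1.2-fold change gave 0 and 0, against 0.0622% lower and 0.122% higher of all probe sets in naïve mice and 0.0600% and 0.0822% over both states. ANOVA with the Student-Newman-Keuls test, the test named in the methods, gave 0 in naïve mice. No share over all probe sets was counted for this test, so its 0 cannot be set against a background. The study also analyzed fewer probe sets than were tested here. The Student-Newman-Keuls test compares pairs of groups, so it had no value over both states, for the mean response or for the difference between the responses. The erythroid covariate gave 0 and 0, as did leaving out the 4 arrays with high pigment cell genes; both were chosen after seeing the data, and leaving out arrays assumes that the lone naïve BALB/cJ array varied like the other groups. Leaving out 1 array at a time gave 0 to 17 in naïve mice, 0 to 7 over both states, 0 to 1 for the difference between the responses and 0 for the other contrasts. The cause was not tested. The replicate block gave 10 and 7, against 2.30% lower and 2.69% higher of all probe sets in naïve mice and 2.13% and 3.01% over both states. With the group means subtracted, same-numbered arrays of different groups correlated at -0.289 to 0.368 over 18 pairs, and differently numbered ones at -0.415 to 0.524 over 36 pairs. The correlation was over 0.1 in 9 of the 18 and in 9 of the 36. These values do not settle whether replicate numbers pair the arrays. The sample-number run as a block gave 11 and 9, against 1.87% lower and 2.51% higher of all probe sets in naïve mice and 2.07% and 3.11% over both states. The 14 collagen differences that were called, each under 22 to 25 alternatives (334 values in all), kept their direction in all of these values and their call in 189. A filter on dim probes was not run, because the centered values hold no signal level, which also limits what can be said of weakly expressed chains.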
